A study of Homo sapiens with 32 samples.

Results

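The genes described here are 29 genes of cholesterol and fatty acid synthesis and of their control by the sterol regulatory element-binding proteins (SREBPs). They were taken by symbol from a table of 24249 gene IDs, measured by RNA sequencing in MM.1S cells, a line of human multiple myeloma. All 29 symbols were found once each, and all 29 passed the filter on low values. By role they are 18 sterol enzymes, 6 SREBP regulators and 5 fatty acid enzymes. The series asks how the gene expression of these cells responds to all-trans retinoic acid (ATRA), a ligand of the retinoic acid receptors, and to carfilzomib (Cfz), an irreversible inhibitor of the proteasome. The ATRA+Cfz group had a 1 h pulse of Cfz followed by 12 h in fresh medium with 10 µM ATRA, and consists of 1 library. The ATRA group had a 1 h pulse of DMSO, the solvent, followed by 12 h with 10 µM ATRA, and has 3 libraries. The Cfz group had a 1 h pulse of Cfz followed by 12 h with DMSO, and consists of 1 library. The DMSO group had DMSO at both steps and has 3 libraries. All groups are the same cell line in medium with fetal bovine serum, a source of lipoprotein cholesterol, and for Cfz the labels state no dose. Each library was read in 4 lanes, which were averaged, and the unit is FPM, fragments scaled so that all genes of a library sum to 1000000.

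Cells make cholesterol from acetyl-CoA through mevalonate, the isoprenoids and squalene, and make fatty acids from the same acetyl-CoA. SREBP precursors sit in the endoplasmic reticulum membrane bound to SCAP. When sterols are plentiful, INSIG proteins hold SCAP there, and when sterols run low, SCAP carries SREBP to the Golgi, where proteases release the part that enters the nucleus. SREBP-2, the product of SREBF2, is known mainly for driving the sterol enzymes, and SREBP-1, the product of SREBF1, mainly for driving the fatty acid enzymes. SREBF1 is also known as a target of LXR, a nuclear receptor that pairs with RXR.

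Recovered depth was 14136937 to 17155331 reads per library, and the smallest count of any of the 29 genes in any library was 48 reads, for TM7SF2. A floor of 3 reads corresponds to 0.175 to 0.212 FPM, so depth set no limit on detecting these genes. The defining markers of plasma cells were abundant, with a summed level of 6230 FPM in ATRA+Cfz, 7123 to 7184 FPM in ATRA, 3999 FPM in Cfz and 3946 to 4450 FPM in DMSO libraries over 8 of 8 markers. IRF4 and SLAMF7 were lower in every ATRA library than in any DMSO library, and the other markers of that list were higher. Summed levels of the marker lists of T and NK, myeloid, stromal, epithelial, and hepatocyte and adipocyte cells were at most 3.67 FPM in any library. The highest of each such list were CD3E, S100A9, PDGFRB, EPCAM and ADIPOQ, at no more than 3.34 FPM. DMSO 3 stood apart from the other DMSO libraries, with a chi-square, divided by its degrees of freedom, of 9.18 against DMSO 1 and 9.71 against DMSO 2, where it was 1.73 between DMSO 1 and DMSO 2. Its share of reads from mitochondrially encoded genes was 5.85%, against 4.12% in DMSO 1 and 4.09% in DMSO 2. The share was 5.72% in ATRA+Cfz, 3.67 to 3.89% in ATRA and 5.43% in Cfz. DMSO 3 was the lowest DMSO library for 21 of the 29 genes, and for 42.7% of all 15827 genes tested.

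The promoters of both SREBF and both INSIG genes are shown because the members of each pair had different values under treatment and because the control of the pathway runs through them. Sequences are from RefSeq on GRCh38.p14, 300 bases around the annotated start, read 5′ to 3′ on the gene's strand: SREBF1 at chr17:17836937-17837236 (minus strand), SREBF2 at chr22:41832855-41833154, INSIG1 at chr7:155297628-155297927 and 1 of the INSIG2 windows at chr2:118088221-118088520 (plus strand for these 3). Capitals mark matches on either strand to the sterol regulatory element TCACNCCAC, the palindromic E-box TCACGTGA, and the CCAAT box of NF-Y, which reads ATTGG in reverse.
SREBF1: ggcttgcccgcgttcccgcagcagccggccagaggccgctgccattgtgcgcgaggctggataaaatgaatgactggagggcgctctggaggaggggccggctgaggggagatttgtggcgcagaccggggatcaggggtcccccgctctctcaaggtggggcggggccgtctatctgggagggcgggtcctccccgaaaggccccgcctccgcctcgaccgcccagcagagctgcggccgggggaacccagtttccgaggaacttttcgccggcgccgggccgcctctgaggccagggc
SREBF2: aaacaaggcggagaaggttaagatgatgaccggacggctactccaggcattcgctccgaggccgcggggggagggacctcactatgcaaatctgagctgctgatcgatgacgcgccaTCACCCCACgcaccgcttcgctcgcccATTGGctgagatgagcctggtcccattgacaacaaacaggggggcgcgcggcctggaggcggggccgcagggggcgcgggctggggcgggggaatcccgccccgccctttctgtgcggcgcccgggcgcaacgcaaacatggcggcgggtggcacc
INSIG1: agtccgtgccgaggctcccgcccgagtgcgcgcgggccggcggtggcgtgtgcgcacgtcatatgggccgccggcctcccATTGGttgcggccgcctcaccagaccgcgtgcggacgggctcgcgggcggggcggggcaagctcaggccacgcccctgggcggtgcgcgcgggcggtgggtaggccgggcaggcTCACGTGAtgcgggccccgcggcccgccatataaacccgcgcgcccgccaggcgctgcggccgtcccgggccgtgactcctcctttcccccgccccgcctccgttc
INSIG2: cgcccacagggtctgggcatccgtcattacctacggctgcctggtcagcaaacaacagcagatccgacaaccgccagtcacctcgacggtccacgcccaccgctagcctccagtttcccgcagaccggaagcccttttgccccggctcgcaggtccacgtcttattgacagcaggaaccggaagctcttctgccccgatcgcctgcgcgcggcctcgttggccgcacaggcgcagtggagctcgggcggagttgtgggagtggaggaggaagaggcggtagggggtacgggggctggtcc

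The SREBF2 window held TCACNCCAC, and also the exact longer consensus of this element that overlaps it, with a CCAAT box a short way downstream. TCACNCCAC was present in 1.13% and the longer consensus in 0.05% of the 35116 promoter windows of the table. Among the windows matched to the 29 genes, only that of SREBF2 held either, which is 2.9% of them. The INSIG1 window held TCACGTGA, which contains the core E-box CACGTG, and an upstream CCAAT box. TCACGTGA was present in 0.98% of all windows and, among those matched to the 29 genes, only in that of INSIG1 (2.9%). The SREBF1 and INSIG2 windows printed held none of the capitalised motifs, which says only that these letters are absent from those 300 bases. Promoters were matched for 25 of the 29 genes, giving 34 windows, and ACAT2, FDFT1, SQLE and FASN were not matched. CCAAT was in 67.6% of the 34 windows and in 34.61% of all windows. The Sp1 box GGGCGG was in 91.2% of the 34 windows and in 44.95% of all windows. Some genes, such as INSIG2, have windows that overlap, so the same site can count more than once. Counted by gene, CCAAT was in 19 and GGGCGG in 24 of the 25 genes. CACGTG was in 5 windows, of INSIG1, LSS, SC5D and SCAP, which is 14.7% against 7.26% of all windows. The retinoid receptor single site AGGTCA was in 3 windows, of ACACA, DHCR7 and ELOVL6, which is 8.8% against 13.83% of all windows. No window of these genes held the direct repeat of the single site with 5 bases between, which 0.01% of all windows held. A string that rare would be absent from almost any 34 windows, so its absence here says nothing about these genes. These shares are descriptions and were not tested.

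With ATRA alone, the fatty acid enzymes and SREBF1 rose together, INSIG1 and DHCR7 rose, and most sterol enzymes moved little or in mixed directions. Of the 29 genes, 15 rose and 3 fell against DMSO, and 11 did not pass the test (limma, Benjamini-Hochberg adjusted p under 0.05 over all genes tested). Of all genes tested, 48.7% were called in this comparison, 21.3% higher and 27.4% lower. All 5 fatty acid enzymes, 3 of 6 regulators and 7 of 18 sterol enzymes rose, and 3 sterol enzymes fell. The median log2 fold change was 0.59 for the fatty acid enzymes, 0.18 for the regulators, 0.11 for the sterol enzymes and -0.03 over all genes tested. In 17 of the 29 genes every ATRA library lay above every DMSO library, in 4 every ATRA library lay below, and in 8 the groups overlapped. Over all genes tested, 25.5% lay wholly above and 31.1% wholly below. An FPM value is a share of the RNA of a whole culture, so fewer cells with a transcript and less transcript per cell cannot be told apart.

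**Figure D1:**
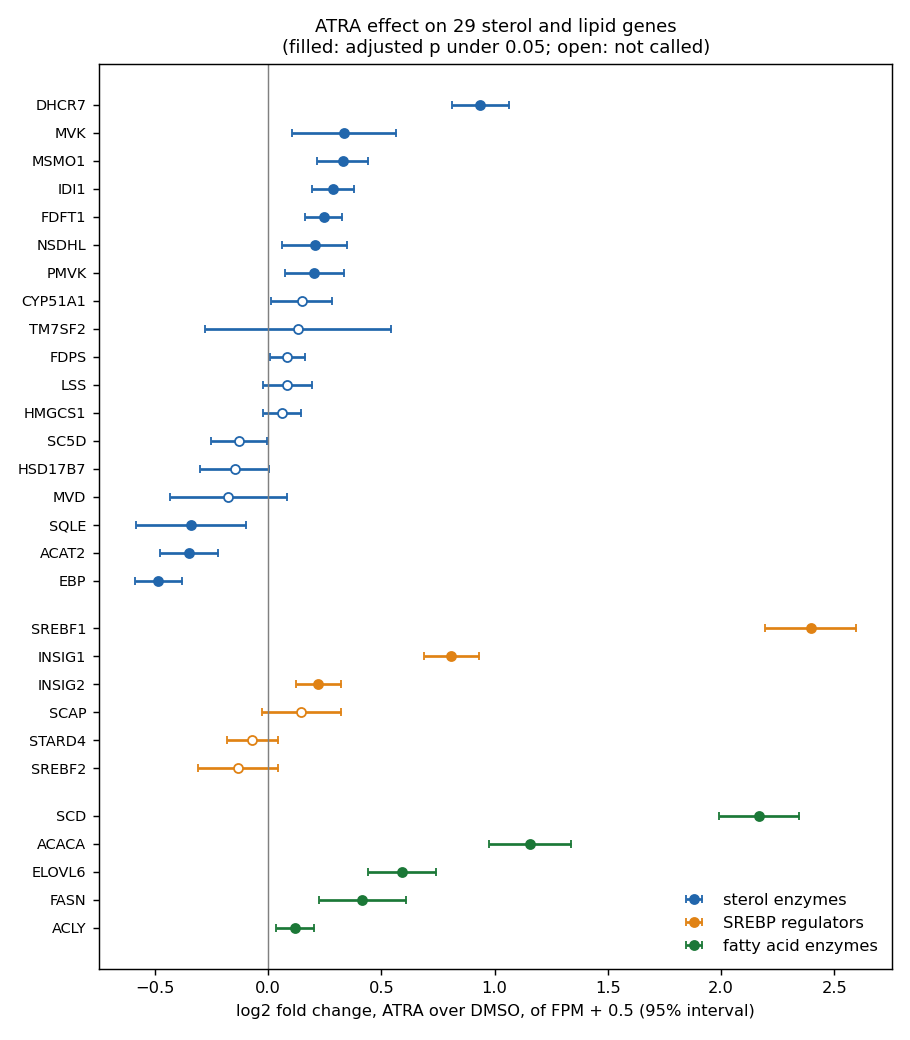
Log2 fold change of each of the 29 genes with ATRA over DMSO, on log2(FPM + 0.5), with the 95% interval from limma (3 libraries in each group). Filled points passed the adjusted p threshold of 0.05, and the genes of each role are sorted from highest to lowest. SREBF1 (2.39) and SCD (2.17) lie farthest to the right, and EBP (-0.48) farthest to the left.

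Among the regulators, SREBF1, which encodes SREBP-1, rose most. SREBF1 had 118, 111 and 109.9 FPM in the ATRA libraries, against 23.2, 23.1 and 17.5 FPM in the DMSO libraries. The groups did not overlap, and the lowest of the DMSO values was in DMSO 3. The log2 fold change was 2.39 ± 0.09 (SE, n = 3 each), a 5.26-fold rise, with a limma adjusted p of 3.9e-09. Without DMSO 3 it was 2.26. The values are per gene and do not separate the alternative transcripts of SREBF1. RAI1, which overlaps it on the opposite strand, stayed at or below 23.0 FPM in all libraries, below the difference between the groups.

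SREBF2, which encodes SREBP-2, did not follow SREBF1. SREBF2 had 157, 158 and 155 FPM in ATRA libraries, against 193, 181 and 146 FPM in DMSO libraries, so the groups overlapped through DMSO 3. Its log2 fold change was -0.13, with a 95% interval of -0.31 to 0.04 (limma adjusted p = 0.2). Without DMSO 3 it was called lower, at -0.25, and without DMSO 1 it was -0.05. SREBF2-AS1, on the opposite strand, reached at most 9.78 FPM.

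INSIG1, which retains the SCAP and SREBP complex in the endoplasmic reticulum, rose. INSIG1 had 438, 441 and 440.3 FPM in ATRA libraries, against 263, 266 and 225 FPM in DMSO libraries. The ATRA values lay close together and far above all DMSO values. The log2 fold change was 0.81 ± 0.06 (SE), with a limma adjusted p of 3.1e-07. Its homologue INSIG2 had 65.9, 61.2 and 65.5 FPM with ATRA, against 54.7, 55.8 and 54.4 FPM with DMSO, also without overlap. The rise of INSIG2 was smaller, at 0.22 ± 0.05 on the log2 scale (adjusted p = 0.0016).

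SCAP, the escort protein that senses sterols, had 68.4, 70.7 and 64.5 FPM in ATRA libraries, against 69.5, 61.7 and 53.5 FPM in DMSO libraries. The groups overlapped, and the log2 difference of 0.15 did not pass the test (adjusted p = 0.15), and it was 0.24 and called higher without DMSO 1 and 0.05 without DMSO 3. STARD4, a sterol transfer protein of the cytosol, had 42.4, 43.3 and 45.2 FPM with ATRA, against 44.3, 48.0 and 45.2 FPM with DMSO. These values overlapped, with a log2 difference of -0.07 and a 95% interval of -0.18 to 0.04, and of -0.04 without DMSO 2.

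**Figure D2:**
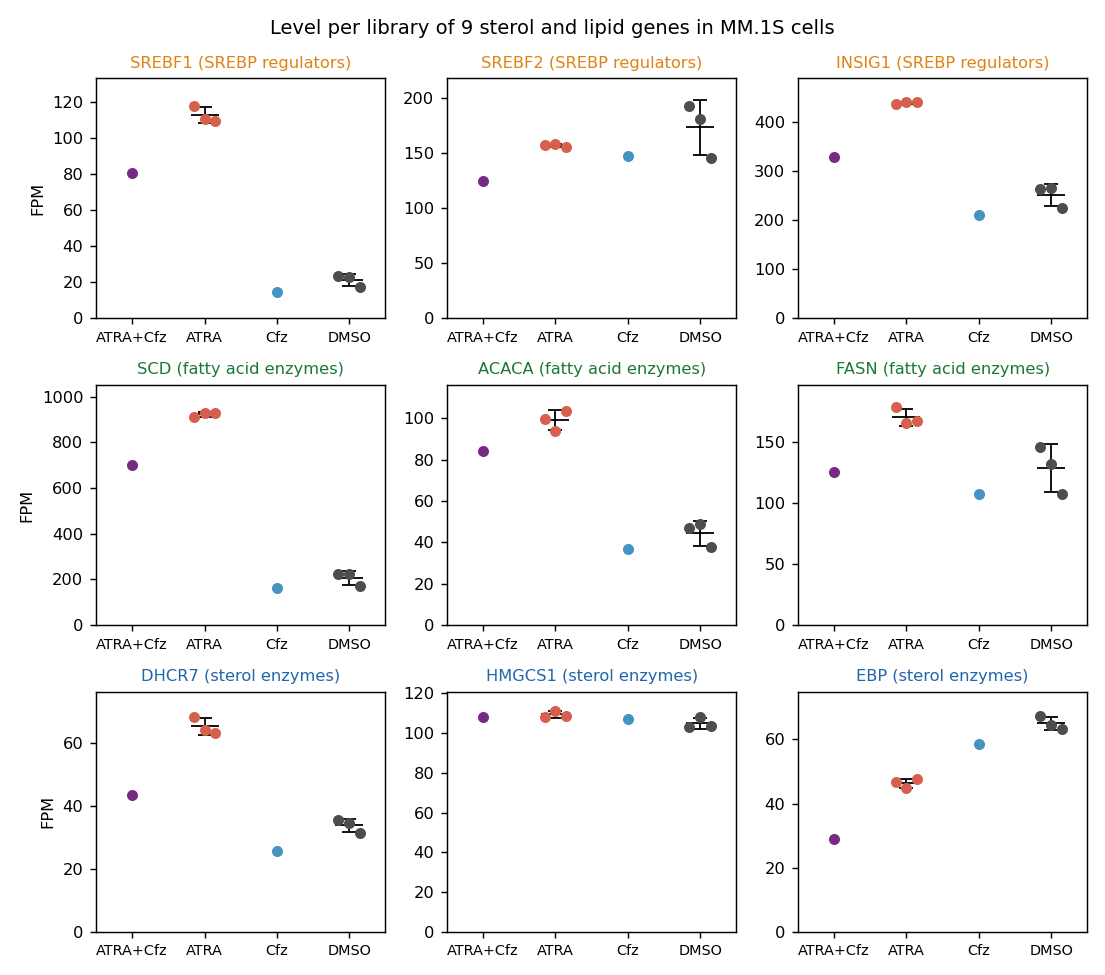
FPM of 9 of the genes in each library, 3 per role, with the groups ATRA+Cfz, ATRA, Cfz and DMSO from left to right. Each point is 1 library, and bars give the mean and SD of the 3 ATRA and the 3 DMSO libraries; ATRA+Cfz and Cfz have 1 library each. SREBF1, SCD and ACACA are high in the ATRA and ATRA+Cfz libraries and low in the Cfz and DMSO libraries, HMGCS1 is level across all 8 libraries, and EBP is lowest in ATRA+Cfz at 28.9 FPM.

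SCD, the desaturase that makes oleate from stearate, had the largest change of the fatty acid enzymes. SCD had 909, 929 and 928 FPM in ATRA libraries, against 224, 223 and 172 FPM in DMSO libraries. Every ATRA value was far above every DMSO value. The log2 fold change was 2.17 ± 0.08 (SE, n = 3 each), or 4.49-fold (limma adjusted p = 2.9e-09). Without DMSO 3 it was 2.04.

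ACACA, the acetyl-CoA carboxylase that makes malonyl-CoA, had 99.8, 93.9 and 104 FPM with ATRA, against 46.7, 49.0 and 37.6 FPM with DMSO. The groups were well apart, and the log2 fold change was 1.16 ± 0.08 (adjusted p = 4.6e-07), and 1.04 without DMSO 3. ELOVL6, which lengthens palmitate to stearate, averaged 38.6 FPM with ATRA and 25.4 FPM with DMSO and rose by 0.59 ± 0.07 on the log2 scale (adjusted p = 2.3e-05). FASN, the fatty acid synthase, had 178, 165 and 167 FPM with ATRA, against 146, 132 and 107 FPM with DMSO. It rose by 0.42 ± 0.09 on the log2 scale (adjusted p = 0.0019), and by 0.29 without DMSO 3. The spread within DMSO was wider than within ATRA, and DMSO 3 was the lowest DMSO library for all 5 fatty acid enzymes. ACLY, which supplies cytosolic acetyl-CoA from citrate, had 193, 194 and 189 FPM with ATRA, against 176, 184 and 169.8 FPM with DMSO. Its rise of 0.12 was the smallest of the 5 and the only one to lose its call when 1 library was left out, at 0.12 without DMSO 1, 0.12 without ATRA 1 and 0.11 without ATRA 2.

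Among the sterol enzymes, DHCR7, which makes cholesterol from 7-dehydrocholesterol, rose most. DHCR7 had 68.5, 64.4 and 63.1 FPM in ATRA libraries, against 35.4, 34.8 and 31.6 FPM in DMSO libraries. The groups did not overlap, and the log2 fold change was 0.94 ± 0.06 (SE, n = 3 each; limma adjusted p = 1.2e-07). The other 6 sterol enzymes that rose did so by 0.20 to 0.33 on the log2 scale. They were MVK and PMVK, the kinases that phosphorylate mevalonate, IDI1, the isopentenyl diphosphate isomerase, FDFT1, the squalene synthase, and MSMO1 and NSDHL, which act in removing methyl groups from the sterol ring.

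IDI1 had 145, 138 and 146 FPM with ATRA, against 117, 122 and 112 FPM with DMSO, a log2 difference of 0.29 ± 0.04. MSMO1 had 123, 124 and 124 FPM with ATRA, against 105, 101 and 90.6 FPM with DMSO, a log2 difference of 0.33 ± 0.05. FDFT1 had 122, 116 and 123 FPM with ATRA, against 99.8, 102 and 103 FPM with DMSO, a log2 difference of 0.25 ± 0.04. In these 3 genes the groups did not overlap and no left-out library ended the call (adjusted p of 0.00016, 0.0002 and 0.00021 for IDI1, MSMO1 and FDFT1). The smaller rises of MVK, NSDHL and PMVK each lost the call without some 1 library. MVK was not called without DMSO 3 (0.27), ATRA 1 (0.32) or ATRA 3 (0.33), NSDHL without ATRA 1 (0.19) or ATRA 2 (0.20), and PMVK without DMSO 2 (0.17) or ATRA 2 (0.16). DESeq2 on the recovered reads called neither MVK (0.388) nor NSDHL (0.245). MVK also overlaps MMAB on the opposite strand, which had up to 19.1 FPM where MVK had at most 9.95, so its values are uncertain.

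EBP, ACAT2 and SQLE went the other way. EBP, the sterol isomerase that follows demethylation, had 46.7, 44.8 and 47.5 FPM with ATRA, against 67.3, 64.5 and 63.2 FPM with DMSO. All ATRA values were below all DMSO values, and EBP fell by 0.48 ± 0.05 on the log2 scale (limma adjusted p = 5.2e-06). ACAT2, the thiolase of the first step, had 23.3, 23.4 and 25.2 FPM with ATRA, against 31.0, 29.9 and 31.0 FPM with DMSO, and fell by 0.35 ± 0.06 (adjusted p = 0.00041). ACAT2 overlaps TCP1 on the opposite strand, which reached 254 FPM, so reads of the more abundant gene could enter its values.

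SQLE, the squalene epoxidase that controls a late step of the pathway, had 21.2, 20.2 and 19.7 FPM with ATRA, against 28.4, 29.4 and 20.8 FPM with DMSO. DMSO 3 lay within the ATRA values, and the other DMSO libraries were above all of them. SQLE fell by 0.34 ± 0.11 on the log2 scale (adjusted p = 0.025), a call that was lost without DMSO 1 (-0.28), DMSO 2 (-0.25), ATRA 1 (-0.37), ATRA 2 (-0.34) or ATRA 3 (-0.32).

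The remaining 8 sterol enzymes did not pass the test with ATRA. HMGCS1, the synthase that makes HMG-CoA and a known SREBP-2 target, had 108, 111 and 109 FPM with ATRA, against 103, 108 and 103 FPM with DMSO. The log2 difference was 0.06, with a 95% interval of -0.02 to 0.14 (adjusted p = 0.21). FDPS (0.09), LSS (0.08), CYP51A1 (0.15) and TM7SF2 (0.13) had positive log2 differences, and SC5D (-0.13), HSD17B7 (-0.15) and MVD (-0.17) had negative ones. These are the farnesyl diphosphate synthase, the lanosterol synthase, the lanosterol demethylase, a sterol reductase, the lathosterol desaturase, a sterol ketoreductase and the mevalonate diphosphate decarboxylase. CYP51A1 was called higher with TMM (0.18) or median-ratio scaling (0.18), edgeR (0.17), DESeq2 (0.18), a replicate block (0.15) or without DMSO 2 (0.21), and was 0.06 without DMSO 3. FDPS was called higher with TMM (0.12) or median-ratio scaling (0.12), edgeR (0.12), a filter at 2 FPM (0.09) or without DMSO 3 (0.09). LSS was called higher without DMSO 1 (0.14) and was 0.04 without DMSO 3, and MVD was -0.07 without DMSO 2. The number of members higher was 17 with either scaling or edgeR and 14 with DESeq2. TM7SF2 had the widest interval of the 29, from -0.28 to 0.54, and was 0.32 without DMSO 1, -0.06 without DMSO 3, 0.03 without ATRA 2 and 0.27 without ATRA 3. It overlaps VPS51 on its own strand, which reached 99.8 FPM.

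After Cfz alone, most of the genes were somewhat lower than in DMSO, and none was called higher. Of the 29 genes, 10 fell and 0 rose, while 24.9% of all genes tested were called, 7.94% higher and 17.0% lower. The genes that fell were the sterol enzymes TM7SF2, DHCR7, PMVK, LSS and FDPS, the regulators SREBF1, STARD4 and INSIG1, and the fatty acid enzymes SCD and ACLY. The median log2 difference was -0.18 over the 29 genes and -0.08 over all genes tested. In 26 of the 29 genes the difference was below 0, against 61.7% of all genes tested. There is 1 Cfz library, so the tests borrow the spread of the DMSO and ATRA libraries and no difference has a replicate check of its own.

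STARD4 gave the smallest p of the 29 in this comparison. STARD4 had 31.7 FPM in the Cfz library, against 44.3, 48.0 and 45.2 FPM in the DMSO libraries, and lay below all of them. The log2 difference was -0.53 ± 0.07 (SE), with a limma adjusted p of 0.00043. SREBF1 had 14.4 FPM in Cfz, against 23.2, 23.1 and 17.5 FPM in DMSO, a log2 difference of -0.54 ± 0.13 (adjusted p = 0.011). DHCR7 had 25.6 FPM in Cfz, against 35.4, 34.8 and 31.6 FPM in DMSO, a log2 difference of -0.40 ± 0.08 (adjusted p = 0.0047). In both genes the Cfz library was below every DMSO library, and DMSO 3 was the nearest to it. TM7SF2 had the lowest log2 difference, -0.98 ± 0.27 (adjusted p = 0.019), from 3.14 FPM in Cfz, against 8.75, 6.76 and 5.02 FPM in DMSO.

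PMVK had 42.2 FPM in Cfz, against 57.2, 51.2 and 51.8 FPM in DMSO, and fell by 0.33 ± 0.08 on the log2 scale (adjusted p = 0.013). FDPS had 134 FPM in Cfz, against 158, 157 and 158 FPM in DMSO, and fell by 0.23 ± 0.05 (adjusted p = 0.0053). Both were below every DMSO library. LSS (-0.25), INSIG1 (-0.25), SCD (-0.35) and ACLY (-0.17) had adjusted p values of 0.022 to 0.044, and of these LSS kept its call whichever library was left out but lost it with TMM scaling (-0.20), median-ratio scaling (-0.18) or DESeq2 (-0.20). Without any one library other than DMSO 3, INSIG1 (-0.25 to -0.20), SCD (-0.35 to -0.29) and ACLY (-0.17 to -0.14) were not called. SCD and ACLY also lost the call with TMM scaling, median-ratio scaling, edgeR or DESeq2. Most of the sterol enzymes that fell lost the call with DESeq2.

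The number that fell after Cfz depended on DMSO 3 and on the scaling. It was 20 without DMSO 3 and 7 without any other single DMSO or ATRA library. It was 6 with TMM or median-ratio scaling, 7 with edgeR and 3 with DESeq2 on the recovered reads, and 0 of the 29 rose with any of these. The share of all calls that were higher, 31.8% on the FPM scale, was 43.6% with TMM and 47.9% with median-ratio scaling. The mitochondrial share was 5.43% in Cfz and 5.85% in DMSO 3, and its part in the result was not tested.

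With ATRA after Cfz, set against ATRA alone, more of the 29 genes fell than in the other comparisons. Here 20 of the 29 fell and 0 rose, while 30.9% of all genes tested were called, 10.6% higher and 20.2% lower. The genes that fell were 12 of 18 sterol enzymes, 4 of 6 regulators and 4 of 5 fatty acid enzymes. The median log2 difference was -0.39 over the 29 genes and -0.04 over all genes tested. The ATRA+Cfz library lay below all 3 ATRA libraries for 27 of the 29 genes, and for 44.9% of all genes tested. It is 1 library, and the ATRA+Cfz values have no replicate check.

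EBP and PMVK gave the smallest p values of these 20. PMVK had 35.5 FPM in ATRA+Cfz, against 58.5, 65.8 and 60.6 FPM in ATRA, and fell by 0.79 ± 0.08 on the log2 scale (SE, limma adjusted p = 5.8e-05). EBP had 28.9 FPM in ATRA+Cfz, against 46.7, 44.8 and 47.5 FPM in ATRA, and fell by 0.67 ± 0.07 (adjusted p = 3.7e-05). SQLE had 11.9 FPM in ATRA+Cfz, against 21.2, 20.2 and 19.7 FPM in ATRA, and fell by 0.75 ± 0.16 (adjusted p = 0.004). In each of these the ATRA+Cfz library was far below all ATRA libraries. ACAT2 fell by 0.57, DHCR7 by 0.58, HSD17B7 by 0.42, FDPS by 0.40 and LSS by 0.27 on the log2 scale. IDI1 (-0.24) and FDFT1 (-0.24) also fell, as did MVK (-0.48) and TM7SF2 (-0.96), which were not called without some ATRA libraries (MVK without any one of the 3, at -0.50 to -0.46, and TM7SF2 without ATRA 1, at -0.92, or ATRA 2, at -0.86).

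ATRA over DMSO and ATRA+Cfz over ATRA share the ATRA libraries. A gene picked as high in them is therefore favoured to fall here. Of the 8 regulators and fatty acid enzymes that rose with ATRA, 6 fell in ATRA+Cfz against ATRA, where 20.2% of all genes tested fell. That share is over genes not picked as high with ATRA, so it is not a like measure for these 8. The other 2, ACACA (-0.24, limma adjusted p = 0.15) and INSIG2 (-0.12, adjusted p = 0.19), did not pass the test. INSIG1 had 329 FPM in ATRA+Cfz, against 438, 441 and 440.3 FPM in ATRA, a fall of 0.42 ± 0.08 on the log2 scale (limma adjusted p = 0.0021). SREBF1 had 80.9 FPM in ATRA+Cfz, against 118, 111 and 109.9 FPM in ATRA, a fall of 0.48 ± 0.13 (adjusted p = 0.016) that was not called without ATRA 1 (-0.45). SCD had 702 FPM in ATRA+Cfz, against 909, 929 and 928 FPM in ATRA, a fall of 0.39 ± 0.11 (adjusted p = 0.022) that was not called without any one ATRA library (-0.40 to -0.39). All 3 genes were below every ATRA library and above every DMSO library in ATRA+Cfz.

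SCAP fell by 0.47, ACLY by 0.36, ELOVL6 by 0.41 and FASN by 0.44, the last of which was not called without ATRA 1 (-0.41). SREBF2 had 125 FPM in ATRA+Cfz, against 157, 158 and 155 FPM in ATRA, and its difference of -0.33 (adjusted p = 0.048) was not called without DMSO 2 or any one ATRA library (-0.34 to -0.32), nor with TMM scaling (-0.30) or edgeR (-0.28). HMGCS1 was not called, with 108 FPM in ATRA+Cfz, against 108, 111 and 109 FPM in ATRA, a log2 difference of -0.02 and a 95% interval of -0.14 to 0.10. SC5D was the one gene above every ATRA library, with 33.9 FPM in ATRA+Cfz, against 32.0, 31.4 and 29.8 FPM in ATRA, a log2 difference of 0.12 that did not pass the test. DESeq2 on the recovered reads called 13 of the 29 lower in place of 20, and the number was 24 without DMSO 3 and 14 without ATRA 1. The mitochondrial share was 5.72% in ATRA+Cfz, against 3.67 to 3.89% in ATRA, and its part in the result was not tested.

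**Figure D3:**
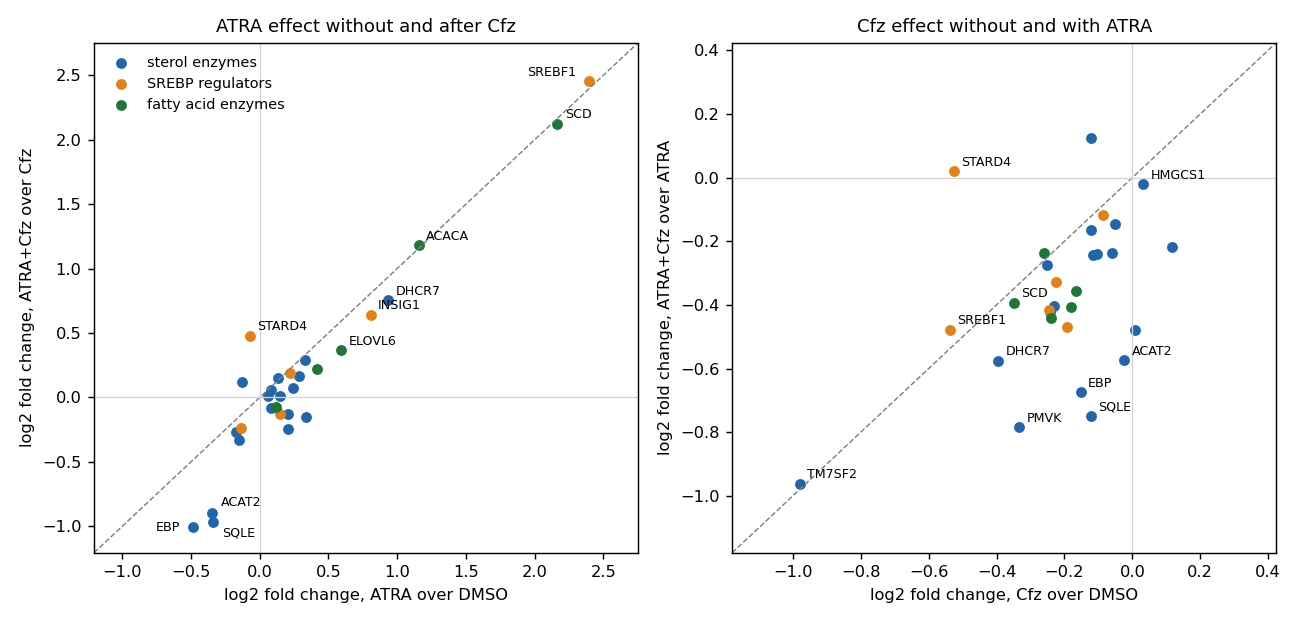
Left, log2 fold change of ATRA+Cfz over Cfz plotted against that of ATRA over DMSO; right, that of ATRA+Cfz over ATRA plotted against that of Cfz over DMSO. Each point is 1 of the 29 genes, coloured by role, the dashed line marks equal effects, and the compared pairs share no library. On the left, SREBF1, SCD and ACACA lie on the line while EBP, ACAT2 and SQLE lie below it and STARD4 above; on the right, most genes are below 0 on both axes.

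Set against Cfz alone, ATRA after Cfz again gave higher SREBF1 and 3 higher fatty acid enzymes of the 5. Of the 29 genes, 8 rose and 3 fell, while 30.4% of all genes tested were called, 12.8% higher and 17.6% lower. SREBF1 had 80.9 FPM in ATRA+Cfz, against 14.4 FPM in Cfz, a log2 difference of 2.45 ± 0.16 (SE, limma adjusted p = 8.7e-07). SCD had 702 FPM in ATRA+Cfz, against 161 FPM in Cfz, a log2 difference of 2.12 ± 0.14 (adjusted p = 9.4e-07). ACACA had 84.0 FPM in ATRA+Cfz, against 36.8 FPM in Cfz, a log2 difference of 1.18 ± 0.14 (adjusted p = 9.5e-05). These 3 differences are close to those of ATRA over DMSO, with intervals for the difference between both effects of -0.35 to 0.46 for SREBF1, -0.40 to 0.31 for SCD and -0.34 to 0.39 for ACACA.

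DHCR7 (0.76), INSIG1 (0.64), STARD4 (0.48), ELOVL6 (0.36) and MSMO1 (0.29) also rose against Cfz on the log2 scale. ELOVL6 was not called without any one ATRA library (0.36) and MSMO1 without ATRA 1 or ATRA 2 (0.29). EBP had 28.9 FPM in ATRA+Cfz, against 58.4 FPM in Cfz, and fell by 1.01 ± 0.08 (limma adjusted p = 4.2e-06). ACAT2 fell by 0.90 ± 0.10 and SQLE by 0.97 ± 0.19. Both libraries are single, and the count that fell was 6 in place of 3 without DMSO 3. Of the 18 genes called with ATRA over DMSO, 14 kept the same sign here, against 89.3% of the genes called over the whole table, and 10 of the 18 were called in the same direction in both, against 51.2% of the genes called over the whole table.

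Whether the effect of ATRA differed after Cfz was tested as an interaction, the ATRA+Cfz over Cfz difference minus the ATRA over DMSO difference. Of all genes tested 2.3% were called, 0.992% higher and 1.31% lower, and of the 29 genes 1 was called higher and 2 lower. For EBP the interaction was -0.52 ± 0.09 (SE, limma adjusted p = 0.022), for ACAT2 -0.55 ± 0.12 (adjusted p = 0.04), and for STARD4 0.55 ± 0.10 (adjusted p = 0.024). EBP fell by 1.01 with ATRA after Cfz and by 0.48 with ATRA alone, and ACAT2 by 0.90 and by 0.35. STARD4 rose by 0.48 with ATRA after Cfz, where it had 44.3 FPM in ATRA+Cfz and 31.7 FPM in Cfz, and differed by -0.07 with ATRA alone. None of these 3 calls held when any one ATRA library was left out, when the interaction of EBP was -0.55 to -0.50, of ACAT2 -0.57 to -0.51 and of STARD4 0.53 to 0.57. ACAT2 was also not called without DMSO 1 (-0.56) or DMSO 2 (-0.53), and STARD4 without DMSO 2 (0.51). PMVK (-0.45, adjusted p = 0.068) and SQLE (-0.63, adjusted p = 0.16) had negative interactions that did not pass the test, and both were called without DMSO 3 (-0.43 and -0.47).

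Set against DMSO, the ATRA+Cfz library had 5 of the 29 genes higher and 11 lower, while 50.6% of all genes tested were called, 20.0% higher and 30.5% lower. The genes that rose were SREBF1 (1.92), SCD (1.77), ACACA (0.92), INSIG1 (0.39) and DHCR7 (0.36). The genes that fell were 8 sterol enzymes, 2 regulators and ACLY. EBP had 28.9 FPM in ATRA+Cfz, against 67.3, 64.5 and 63.2 FPM in DMSO, a fall of 1.16 ± 0.07 on the log2 scale (SE, limma adjusted p = 7.1e-08). SQLE had 11.9 FPM in ATRA+Cfz, against 28.4, 29.4 and 20.8 FPM in DMSO, a fall of 1.09 ± 0.16 (adjusted p = 0.00012). ACAT2 fell by 0.92 ± 0.08 (adjusted p = 2.8e-06). In these 3 the single ATRA+Cfz library was well below every DMSO library.

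TM7SF2 (-0.83), PMVK (-0.58), HSD17B7 (-0.57), SREBF2 (-0.46), FDPS (-0.32), SCAP (-0.33), ACLY (-0.24) and LSS (-0.19) made up the rest of the genes lower than in DMSO. LSS was not called without any one library other than DMSO 3 (-0.20 to -0.14), and SCAP was not called without DMSO 1 (-0.23), DMSO 2 (-0.32) or ATRA 1 (-0.33). SREBF1 and SREBF2 thus lay on opposite sides of DMSO in this library, at 1.92 ± 0.13 and -0.46 ± 0.11 on the log2 scale, with limma adjusted p values of 2.8e-07 and 0.0052. HSD17B7 has a pseudogene copy, HSD17B7P2, which had at most 3.41 FPM, so reads could be split between them.

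**Figure D4:**
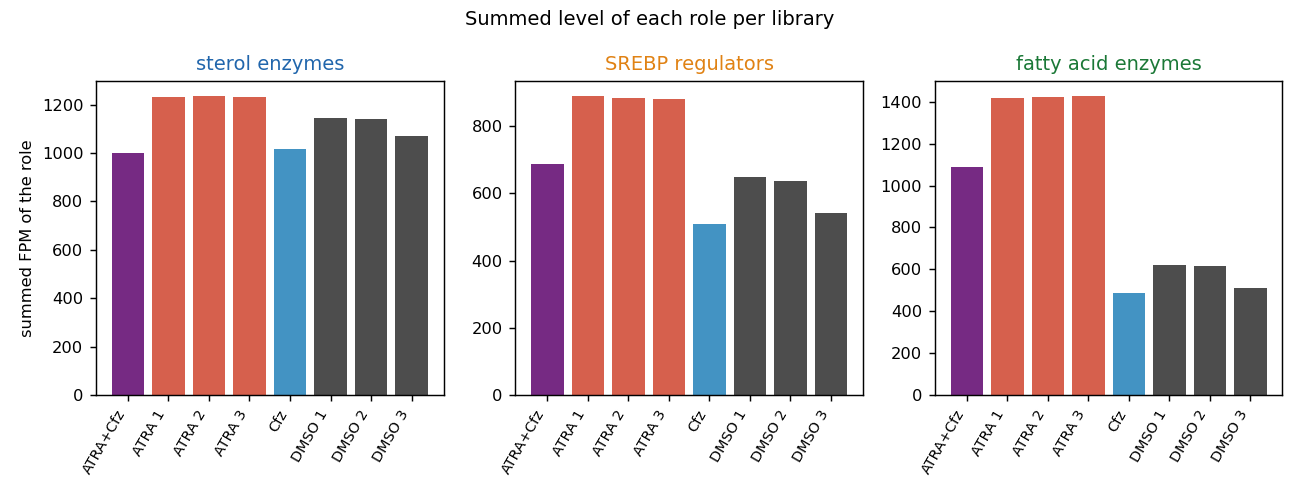
Summed FPM of the 18 sterol enzymes, the 6 SREBP regulators and the 5 fatty acid enzymes in each of the 8 libraries, with ATRA+Cfz on the left and DMSO on the right of each panel. Each bar is 1 library and starts at 0. The fatty acid enzymes reach 1416.7 to 1427.6 FPM in ATRA libraries and 510.2 to 619.6 FPM in DMSO libraries, while the sterol enzymes stay between 1000.7 and 1235.2 FPM in all libraries.

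Summed over a role, the levels differed between groups in each of the 3 roles. The fatty acid enzymes summed to 1090.0 FPM in ATRA+Cfz, 1416.7, 1421.7 and 1427.6 FPM in ATRA, 484.9 FPM in Cfz and 619.6, 614.6 and 510.2 FPM in DMSO. Without SCD, the most abundant of them, the sums were 387.8 FPM in ATRA+Cfz, 507.5, 492.4 and 499.1 FPM in ATRA, 324.2 FPM in Cfz and 395.9, 391.3 and 337.8 FPM in DMSO. The order of the groups was the same without SCD except that ATRA+Cfz then lay within the range of the DMSO libraries. The sterol enzymes summed to 1000.7 FPM in ATRA+Cfz, 1230.6 to 1235.2 FPM in ATRA, 1015.0 FPM in Cfz and 1068.1 to 1145.8 FPM in DMSO. ATRA libraries were thus the highest and both libraries pulsed with Cfz the lowest. The regulators summed to 687.4 FPM in ATRA+Cfz, 880.7 to 889.7 FPM in ATRA, 509.6 FPM in Cfz and 541.2 to 647.8 FPM in DMSO. ATRA libraries lay highest, with ATRA+Cfz between them and DMSO. Without INSIG1, the most abundant regulator, the sums were 358.0 FPM in ATRA+Cfz, 440.4 to 452.2 FPM in ATRA, 298.4 FPM in Cfz and 316.2 to 384.9 FPM in DMSO, so that ATRA+Cfz lay within the DMSO libraries.

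Genes around the pathway were examined with ATRA over DMSO in 5 further lists. These lists were chosen with earlier results of these data known, so their counts are descriptions and cannot show an enrichment. Of the LXR side and sterol export list, 4 of 6 rose and 0 fell, against the 21.3% and 27.4% of all genes tested. ABCG1, a sterol exporter, had 6.93, 8.68 and 8.03 FPM with ATRA, against 0.757, 0.783 and 0.400 FPM with DMSO, a log2 difference of 2.88 ± 0.17 (SE, limma adjusted p = 1.2e-07). ABCA1, which loads cholesterol onto apolipoprotein A-I, had 10.5, 10.5 and 10.9 FPM with ATRA, against 1.87, 1.56 and 1.07 FPM with DMSO, a log2 difference of 2.50 ± 0.16 (adjusted p = 1.7e-07). MYLIP, a ubiquitin ligase for lipoprotein receptors, rose by 0.53 ± 0.11 (adjusted p = 0.0014). All 3 were higher in every ATRA library than in any DMSO library, as were 25.5% of all genes tested. They were named for their small p in this comparison, so this separation is no further support. ABCA1 and ABCG1 also rose in ATRA+Cfz over Cfz, with 15.1 against 0.922 FPM for ABCA1 and 9.27 against 1.51 FPM for ABCG1.

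Other reported targets of SREBPs moved in both directions with ATRA, with 2 of 10 tested genes higher and 5 lower. Of all genes tested, 21.3% were higher and 27.4% lower, and several of the list counts here are near those shares. ME1, the malic enzyme that yields NADPH, had 84.4, 85.0 and 87.4 FPM with ATRA, against 42.6, 41.0 and 40.1 FPM with DMSO, a log2 difference of 1.05 ± 0.04 (SE, limma adjusted p = 4.8e-09). ME1 was also higher after Cfz alone, with 80.0 FPM, and highest in ATRA+Cfz, with 139.6 FPM. ACACB, the mitochondrial acetyl-CoA carboxylase, fell by 0.70 ± 0.09 (adjusted p = 5.2e-05), opposite to ACACA. TMEM97, a sterol-responsive membrane protein, fell by 0.32 ± 0.05 (adjusted p = 9.6e-05). Of the genes for SREBP processing, 3 of 8 rose and 2 fell, with rises of 0.27 for SEC24D, a coat protein of vesicles leaving the endoplasmic reticulum, 0.29 for the protease gene MBTPS2 and 0.27 for the ubiquitin ligase gene RNF139. Of the isoprenoid branch, 6 of 12 rose and 1 fell. ICMT, which methylates prenylated proteins, fell by 0.47, and RABGGTB (0.30) and GGPS1 (0.31), a prenyltransferase subunit and the geranylgeranyl diphosphate synthase, rose. Of sterol storage and transport, 2 of 9 rose and 4 fell. OSBPL1A, an oxysterol-binding protein homologue, had 31.9, 29.8 and 32.7 FPM with ATRA, against 75.8, 78.0 and 65.0 FPM with DMSO, and fell by 1.20 ± 0.07 (adjusted p = 8.3e-08). The lysosomal lipase LIPA rose by 0.37, and OSBPL8 fell by 0.32.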

How the data were processed

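RNA sequencing gave 8 libraries of MM.1S cells, each read in 4 lanes (32 columns). Per the submitters' processing notes the reads went through fastp 0.20.0, kallisto 0.46.2 and an unversioned DESeq2. Build, annotation and strand setting were not given in the sources used here. The authors deposited FPM, a CPM unit in which each lane sums to 1000000. The 24402 lines hold 24249 distinct gene IDs, 143 of them repeated with the same values, and 100% of values were whole reads within 0.01 read. Gene symbols came from the table for 17006 IDs, from GENCODE 29 for 6482 and from a name table for 754, and 7 had none. Overlapping genes were read from GENCODE 29.

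Lanes differed little beyond sampling noise (chi-square per degree of freedom 1.224 to 1.275) and for none of the 29 genes at adjusted p under 0.05 (0 of 232 pairs of gene and library), so they were averaged. All 8 libraries entered 1 fit with limma 3.58.1 in R 4.3.3 on log2(FPM + 0.5) with an intensity trend, over 15827 genes with a mean of group means of at least 0.5 FPM. Fold changes are on that log2 scale and understate changes of low genes. P values were Benjamini-Hochberg adjusted over all genes tested, with calls under 0.05. The Cfz and ATRA+Cfz groups have 1 library each and use the spread of the others. The sources do not say that libraries came from separate cultures, so p values may reflect technical spread only. Alternatives were other pseudocounts and filters, TMM and median-ratio scaling, edgeR 4.0.16 and DESeq2 1.42.0 on the recovered reads, a robust fit, a replicate block and leaving out each ATRA and DMSO library. Same-numbered ATRA and DMSO libraries did not deviate together (r across genes of -0.006, -0.002 and 0.006), so the numbers were not used to pair them. The procedure was tested on simulated data with the same spread in every library and far fewer changed genes than were called with ATRA over DMSO. The outcome is not given here and is not used as support for the calls. That test does not cover a library that stands apart, as DMSO 3 did. The 95% intervals come from the limma fit and its spread between libraries, while the floor of 3 reads covers counting error only. All 29 genes are named. Of each further list, up to 3 genes with the smallest p for ATRA over DMSO are named, and other genes appear as overlap partners or markers. The members and lists were chosen with earlier results of these data known.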

Additional observations from a re-analysis of the deposited data

Results flagged for a closer look

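The effect of ATRA differed between cells pulsed with Cfz and cells not pulsed with it for 3 of the 29 genes, by the interaction term of the limma fit with Benjamini-Hochberg adjustment, which called 2.3% of all genes tested. EBP had an interaction of -0.52 on the log2 scale (adjusted p = 0.022), with 28.9 FPM in ATRA+Cfz, 46.7, 44.8 and 47.5 FPM in ATRA, 58.4 FPM in Cfz and 67.3, 64.5 and 63.2 FPM in DMSO. ACAT2 had an interaction of -0.55 (adjusted p = 0.04), with 15.9 FPM in ATRA+Cfz, 23.3, 23.4 and 25.2 FPM in ATRA, 30.1 FPM in Cfz and 31.0, 29.9 and 31.0 FPM in DMSO. STARD4 had an interaction of 0.55 (adjusted p = 0.024), with 44.3 FPM in ATRA+Cfz, 42.4, 43.3 and 45.2 FPM in ATRA, 31.7 FPM in Cfz and 44.3, 48.0 and 45.2 FPM in DMSO. EBP and ACAT2 were lowest in ATRA+Cfz, and STARD4 was lowest in Cfz. Each interaction rests on 1 ATRA+Cfz and 1 Cfz library. None of the 3 passed the threshold when any one ATRA library was left out, with values of -0.55 to -0.50 for EBP, -0.57 to -0.51 for ACAT2 and 0.53 to 0.57 for STARD4. DESeq2 on the recovered reads called EBP but not ACAT2 (-0.59) or STARD4 (0.52).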

How the results depend on the processing

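No called value of the 29 genes changed sign under any alternative: 1072 comparisons of a called value with an alternative kept the call and 116 lost it, while 48 uncalled values became called. The 15 genes higher and 3 lower with ATRA over DMSO were 12 to 16 and 2 to 4 when 1 library was left out. They were 17 and 3 with TMM scaling, median-ratio scaling or edgeR, and 14 and 3 with DESeq2. With a replicate block they were 16, with CYP51A1 added, and 3. The block gave 3316 higher and 4313 lower genes over the whole table, against 3368 and 4336 without it.

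For Cfz over DMSO the members lower were 6 with TMM scaling, 6 with median-ratio scaling, 3 with DESeq2 and 7 to 20 with 1 library left out. Over all genes the lower calls were 2691, and 1783 with median-ratio scaling and 944 with DESeq2. For ATRA+Cfz over DMSO 8 members were higher with edgeR. For ATRA+Cfz over Cfz, DESeq2 called 1292 genes higher and 1816 lower, against 2028 and 2790, and 3 to 6 members were lower with 1 library left out. For ATRA+Cfz over ATRA, DESeq2 called 1735 genes lower, against 3203, and 13 members lower, and 14 to 24 members were lower with 1 library left out. The share of calls that were higher there was 34.4%, and 45.3% with edgeR.

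The interaction was the least stable. Its 157 higher and 207 lower genes were 0 to 951 and 2 to 1034 with 1 library left out, the largest without DMSO 3 and the smallest without ATRA 1. Median-ratio scaling gave 428 lower and DESeq2 gave 72 higher. Among the members, 0 to 1 were higher and 0 to 4 lower with 1 library left out, and DESeq2 called 0 higher and 1 lower. The share of interaction calls that were higher was 43.1%, and 31.9% with TMM, 22.3% with median-ratio scaling and 24.0% with DESeq2. For Cfz over DMSO that share was 42.2% with edgeR and 53.1% with DESeq2.

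With ATRA over DMSO, DESeq2 called 1 SREBP processing gene and 3 other SREBP targets lower. With 1 library left out, 1 to 4 processing genes, 4 to 6 other targets and 1 to 2 isoprenoid genes were lower, and 1 to 2 storage and transport genes were higher. The exact sterol regulatory element was found in the same number of members, 1. The cause of these differences was not tested. Groups hold 3 libraries at most, and 1 where cells were pulsed with Cfz, which limits the precision of small differences, as does depth for genes with few reads such as TM7SF2, MVD and MVK.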
